A study of Mus musculus with 18 samples.

Results

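The genes described here are 38 genes of fatty acid oxidation and of the transcriptional programme of PPARa, the lipid-activated nuclear receptor encoded by Ppara. They were chosen by symbol from a list, each symbol matched 1 row, and they are 38 of the 52636 genes in the deposited tables. The tables come from poly-A RNA sequencing of liver, brain and testis of male C57BL/6 mice aged 8 weeks. Their genotype was wild type (WT) or Pcgf6 knockout (KO), Pcgf6 being a subunit of a variant Polycomb repressive complex known for silencing germ cell genes outside the germ line. Each tissue has 3 WT libraries, numbered 1 to 3 in the labels, and 3 KO libraries, numbered 4 to 6, which makes 18 in all. The labels do not give the Pcgf6 allele, the feeding state or the time of day, and nothing in them says that the libraries of a group come from separate animals, so p-values measure only the spread between these samples.

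Long-chain fatty acids reach the mitochondrial matrix as carnitine esters, are shortened there by a cycle of dehydrogenation, hydration, oxidation and thiolysis, and feed ketone body synthesis in liver. Peroxisomes shorten chains that mitochondria handle poorly, and microsomal P450 enzymes of the Cyp4a family hydroxylate the far end of the chain. In liver PPARa binds fatty acids and switches on genes at each of these steps during fasting, and lipogenic genes are switched on after feeding.

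PPARa binds DNA with RXR at a direct repeat of the hexamer AGGTCA with any 1 base between its copies. Of the 38 genes, 30 had a promoter entry in the RefSeq table for GRCm38.p6, and the 250 bases before the start were searched on both strands. Vnn1, Angptl4, Acaa2, Decr1, Crat, Cyp4a10, Cyp4a14 and Cyp4a31 had no entry and were not searched. None of the member promoters searched held the exact repeat, which 0.0335% of the 32841 promoters in the table held. With 1 mismatch allowed Fabp1 alone matched, against 0.484% of all promoters. With 2 allowed, Fabp1, Acot4, Cd36, Creb3l3 and Plin2 matched, which is 5 of 30 genes, against 3.24% of all promoters. The stretches of the 3 genes whose matched window lies outside the gene as the tables place it are shown to let the position of the repeat be read, with the match in capitals. They lie at chr6:71199629-71199826 (plus strand) for Fabp1, chr4:86670061-86670309 (minus strand) for Plin2 and chr12:84038129-84038378 (plus strand) for Acot4, all in GRCm38.p6. In each the repeat reads on the strand opposite to the gene, so the capitals show its complement.
Fabp1: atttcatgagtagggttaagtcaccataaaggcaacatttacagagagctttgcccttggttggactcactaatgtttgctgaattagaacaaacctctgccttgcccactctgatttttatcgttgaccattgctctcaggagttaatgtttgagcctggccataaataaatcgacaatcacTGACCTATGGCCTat
Plin2: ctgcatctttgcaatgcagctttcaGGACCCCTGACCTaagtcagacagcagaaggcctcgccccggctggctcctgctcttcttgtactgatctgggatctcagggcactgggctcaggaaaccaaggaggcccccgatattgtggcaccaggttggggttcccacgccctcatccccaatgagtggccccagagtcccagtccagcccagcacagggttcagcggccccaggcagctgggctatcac
Acot4: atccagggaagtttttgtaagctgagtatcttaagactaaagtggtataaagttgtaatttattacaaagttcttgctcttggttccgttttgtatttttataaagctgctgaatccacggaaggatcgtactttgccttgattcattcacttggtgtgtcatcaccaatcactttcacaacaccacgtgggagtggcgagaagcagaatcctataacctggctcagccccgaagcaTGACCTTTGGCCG
The Fabp1 match ends 2 bases before the gene start, the Acot4 match directly at it, and the Plin2 match 211 bases before it. A match of letters is not a binding site, and no binding was measured in these mice. The E-box CACGTG occurred in 2 member promoters, those of Acot4 and Fgf21, against 6.02% of all, and the E2F6 motif TTCCCGC in 0 of the 30 genes, against 3.82% of all promoters.

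Depth was 18990130 to 23529098 reads in the liver libraries, 20759022 to 23183662 in brain and 20098777 to 23335596 in testis. Values are FPKM, which corrects each gene's fragments for its length and for a size factor of the library. Pcgf6 itself lay at 4.08 to 5.66 FPKM in WT and 1.44 to 2.66 in KO liver, at 4.58 to 5.29 and 3.30 to 4.42 in brain, and at 19.9 to 22.3 and 9.58 to 10.6 in testis. The KO range was below the WT range in each tissue, and KO libraries still held reads of the gene. The summed level of 8 hepatocyte markers was 53789 to 61248 FPKM in WT and 53880 to 61204 in KO liver, that of 5 neuron markers 558 to 596 in WT brain, and that of 5 spermatid markers 17367 to 24463 in WT testis.

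The first comparison asked which of the 38 genes differ in liver when Pcgf6 is lost. None did so at the threshold: with limma, 0 of 38 had a Benjamini-Hochberg adjusted p under 0.05, and 3 of 14124 genes tested did (0.0212%). The members nevertheless leaned upward. The log2 fold change, KO minus WT on the log2(FPKM + 0.1) scale, was above 0 for 33 of 38 members and for 50.2% of all genes, and the median was 0.21 against 0.00074 over all genes tested. An unadjusted p under 0.05 was found for 6 members, and for 4.38% of all genes, and limma voom on the recovered reads called 0 members as well. The KO libraries all lay above the WT libraries for 7 members, against 4.94% of all genes, and below them for 0, against 4.58%. Because a liver sample holds several cell types, fewer cells of a type and less RNA per cell cannot be told apart in any of these values.

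The upward lean lay in some steps of the pathway more than others, as a description of counts and medians. The 4 omega-hydroxylases had a median log2 fold change of 0.94, the 3 uptake, binding and storage genes 0.46 and the 4 acyl-CoA thioesterases 0.43. The 6 regulators and secreted factors had a median of 0.26 and the 7 peroxisomal genes 0.21. The 4 genes of mitochondrial entry, at 0.05, and the 10 of the mitochondrial cycle, at 0.02, sat close to the median of all genes. Rescaling all libraries to 1 common sum (TPM) left 28 of 38 members above 0 with a median of 0.16. It moved all genes as well, to 5375 of 14124 above 0 and a median of -0.05. The median of the mitochondrial cycle became -0.03, which was still close to that of all genes.

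**Figure D1:**
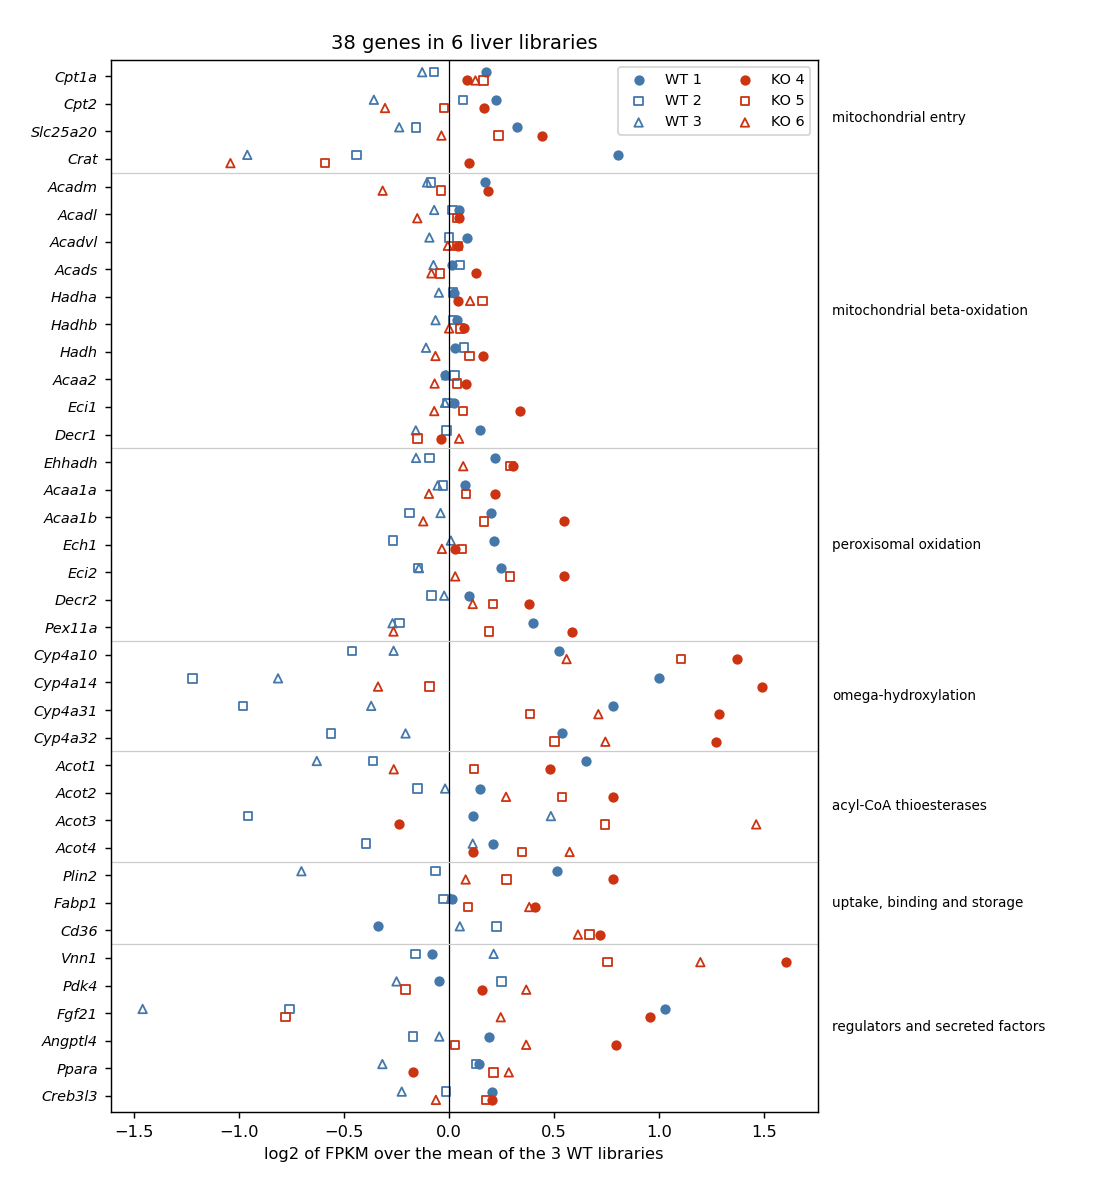
Each of the 38 genes (rows, grouped by role) in the 6 liver libraries: the horizontal axis is the log2 of FPKM over the mean of the 3 WT libraries, blue marks are WT and red marks KO, and filled circles are WT 1 and KO 4. The Cyp4a genes, Vnn1 and 1 library of Acot3 reach furthest to the right, the genes of the mitochondrial cycle stay near 0, and the filled circles tend to be the rightmost mark of their colour.

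Vnn1, a pantetheinase that releases the coenzyme A precursor pantothenate and is a PPARa target, had the largest difference. In liver it measured 11.0, 10.5 and 13.6 FPKM in the WT libraries, in the order 1, 2, 3, and 35.5, 19.8 and 26.8 in the KO libraries, in the order 4, 5, 6, the order kept below. All 3 KO libraries were above all WT libraries, with means of 11.7 ± 1.64 and 27.4 ± 7.90 (SD, n = 3 each). Its log2 fold change was 1.19 ± 0.21 (limma SE), with an unadjusted p of 0.000811 and a Benjamini-Hochberg adjusted p of 0.485. The gene lies at chr10:23894688-23905343 (mm10, plus strand, ENSMUSG00000037440).

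The omega-hydroxylases lie side by side at chr4:115486200-115621602. Cyp4a10 measured 141, 71.4 and 81.9 FPKM in WT and 254, 211 and 145 in KO liver. The lowest KO library stood just above the highest WT library, and the limma log2 fold change was 1.08 ± 0.30 (adjusted p = 0.808). Cyp4a32 measured 25.2, 11.7 and 15.0 FPKM in WT and 41.9, 24.6 and 29.1 in KO, so that KO 5 fell just under WT 1. Cyp4a31 was at 10.3, 3.05 and 4.65 FPKM in WT and 14.7, 7.87 and 9.85 in KO, with KO 5 and KO 6 under WT 1. Cyp4a14 varied most within a genotype. It measured 63.9, 13.7 and 18.2 FPKM in WT and 89.8, 30.0 and 25.3 in KO, so WT 1 exceeded KO 5 and KO 6. The coding sequences of Cyp4a10, Cyp4a31 and Cyp4a32 are 96.0% to 97.2% identical in the GENCODE M21 transcripts, so the division of reads among these 3 genes is uncertain, whereas Cyp4a14 shares 77.6% with Cyp4a10 and no stretch of 50 bases.

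Among the genes of uptake, binding and storage, Cd36, a membrane transporter of long-chain fatty acids, had the tightest separation. It measured 5.14, 7.59 and 6.73 FPKM in WT and 10.7, 10.3 and 9.94 in KO liver. Every KO library was above every WT library, and the log2 fold change was 0.68 ± 0.15 (limma, unadjusted p = 0.0027, adjusted p = 0.578). Cd36 is also made by macrophages, endothelium and fat. The summed level of 7 Kupffer cell and macrophage markers was 99.9 to 243 FPKM in WT and 123 to 216 in KO. That of 5 liver endothelial markers was 39.3 to 59.2 and 27.5 to 64.7. That of 6 adipocyte markers was 3.84 to 9.81 and 5.59 to 7.01, with Lep and Retn at 0 in KO. The genotypes overlapped on all 3 sums. The adipocyte sum, with means of 5.97 and 6.40, was mostly the lipid droplet gene Cidec. Cidec averaged 4.08 in WT and 4.88 in KO, and its KO libraries all lay above the WT libraries. That sum therefore says little of fat cells.

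Fabp1, the abundant cytosolic fatty acid binding protein of hepatocytes, measured 8184, 7967 and 8156 FPKM in WT and 10783, 8632 and 10568 in KO liver. KO 5 lay close to the WT libraries and the log2 fold change was 0.30 ± 0.17. Plin2, which coats lipid droplets, ran from 166 through 111 to 71.5 FPKM in WT 1, WT 2 and WT 3 and measured 200, 141 and 123 in KO. The WT libraries alone spanned more than the genotype difference, and the log2 fold change was 0.46 ± 0.31.

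Of the thioesterases, which release free fatty acids from coenzyme A, Acot2 separated by genotype, at 1.10, 0.893 and 0.978 FPKM in WT and 1.70, 1.44 and 1.20 in KO liver (log2 fold change 0.50 ± 0.19, limma adjusted p = 1.00). Acot1, the cytosolic form, overlapped, with WT libraries averaging 11.4 ± 5.74 FPKM and KO libraries 12.7 ± 3.23. Its coding sequence is 95.5% identical to that of Acot2, so reads of this pair may be divided wrongly. Acot3 and Acot4, both peroxisomal, also overlapped, with log2 fold changes of 0.68 ± 0.46 and 0.37 ± 0.19. Acot3 was low, between 0.323 and 1.73 FPKM over the 6 libraries, and 93 reads in WT and 156 in KO stand behind it.

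Of the regulators, Ppara measured 52.4, 51.9 and 38.1 FPKM in WT and 42.2, 55.1 and 57.9 in KO liver. WT and KO overlapped and the log2 fold change was 0.12 ± 0.17. Angptl4, a secreted inhibitor of lipoprotein lipase, measured 83.7, 65.2 and 71.1 FPKM in WT and 127, 74.9 and 94.7 in KO (0.41 ± 0.19). Only KO 5 fell within the WT range. Fgf21, the fasting hormone of liver, measured 2.38, 0.687 and 0.423 FPKM in WT and 2.26, 0.678 and 1.38 in KO, with 46 and 54 reads in all. Pdk4, the kinase that shuts off pyruvate dehydrogenase, stayed near 1, at 0.923, 1.14 and 0.803 in WT and 1.07, 0.827 and 1.23 in KO. Neither gene separated by genotype. Creb3l3, a liver transcription factor that works with PPARa, measured 216 ± 32.1 and 234 ± 23.2 FPKM (SD, n = 3 each).

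Mitochondrial entry showed no separation. Cpt1a, the gatekeeping carnitine palmitoyltransferase, measured 183, 154 and 148 FPKM in WT and 172, 182 and 177 in KO liver, all 3 KO values inside the WT range. Its inner-membrane partner Cpt2 measured 91.4 ± 18.2 and 88.8 ± 14.3 FPKM, and the carnitine-acylcarnitine carrier Slc25a20 29.6 ± 6.55 and 34.7 ± 5.69. Crat, which makes acetylcarnitine, had the lowest log2 fold change of the 38, -0.31 ± 0.47. It ran from 14.3 in WT 1 to 4.20 in WT 3 and from 8.72 in KO 4 to 3.97 in KO 6, so the spread within a genotype was larger than the difference.

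The mitochondrial cycle was the steadiest group, with log2 fold changes between -0.05 and 0.11. The acyl-CoA dehydrogenases for medium, long, very long and short chains, Acadm, Acadl, Acadvl and Acads, measured 118 to 139 FPKM in KO for the first 3 and 95.6 for Acads, against 121, 122, 137 and 95.3 in WT. Acaa2, the matrix thiolase, was the most abundant at 838 ± 14.3 and 850 ± 45.4. Hadha, the large subunit of the trifunctional protein, measured 63.6, 63.3 and 60.4 FPKM in WT and 64.5, 69.8 and 67.0 in KO, a separation of under 1 FPKM between the nearest libraries that was lost on the TPM scale, as was that of Fabp1. Its partner Hadhb (log2 fold change 0.04 ± 0.07), Hadh (0.07 ± 0.09), and Eci1 and Decr1, which prepare unsaturated chains (0.11 ± 0.11 and -0.04 ± 0.10), overlapped between genotypes.

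Hadha and Hadhb encode the 2 subunits of 1 enzyme and lie head to head with 85 bases between them, at chr5:30155163-30155247 (GRCm38.p6, plus strand). The interval is shown because it lies between the outer bounds of the 2 genes. The RefSeq promoter entries used above place the starts elsewhere. The Hadha entry spans chr5:30154981-30155230 (minus strand), so that start lies inside the bounds of Hadha. The Hadhb entry ends at chr5:30155252 (plus strand), just inside the bounds of Hadhb.
Hadha-Hadhb interval: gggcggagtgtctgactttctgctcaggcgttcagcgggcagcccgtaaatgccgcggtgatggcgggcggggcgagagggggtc
The level of Hadha over that of Hadhb, each per length, was 1.68 ± 0.02 in WT liver, 1.05 ± 0.05 in WT brain and 2.18 ± 0.25 in WT testis (SD, n = 3 each). The 3 WT ranges did not overlap, and the KO ratios were 1.75 ± 0.09, 1.01 ± 0.09 and 2.40 ± 0.01.

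Of the 7 peroxisomal genes, all with a log2 fold change above 0 in liver, only Decr2, a peroxisomal dienoyl-CoA reductase, separated by genotype. It measured 131, 116 and 121 FPKM in WT and 160, 142 and 133 in KO (0.24 ± 0.10, limma adjusted p = 1.00). Ehhadh, the bifunctional enzyme, measured 125 ± 17.9 and 146 ± 13.2 FPKM, and Eci2, an isomerase, 46.7 ± 7.65 and 57.7 ± 10.3. The thiolase Acaa1b measured 415 ± 56.9 and 485 ± 114 and its near copy Acaa1a, 96.6% identical in coding sequence, 65.7 ± 3.21 and 69.3 ± 7.49. Ech1 (144 ± 23.7 and 146 ± 4.97) and Pex11a, which drives peroxisome division (46.3 ± 12.8 and 53.7 ± 15.5), completed the group, and on the TPM scale 6 of the 7 stayed above 0.

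A second pattern in liver ran across genotypes. WT 1 was the highest WT library for 31 of 38 members, against 35.2% of all genes, and KO 4 the highest KO library for 30 of 38, against 37%. Both held for 25 members, against 17.6% of all genes. At the other end, WT 3 was the lowest WT library for 22 members, against 33.3%, and KO 6 the lowest KO library for 25, against 35.7%. On the TPM scale WT 1 and KO 4 were each highest for 22 members, against 18% and 24.8% of all genes. For 34 of 38 members the ratio of the highest to the lowest library within one genotype exceeded the ratio of the genotype means, as it did for 95.9% of all genes tested.

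Genes of the fed state, a list of 10 lipogenic genes and their regulators, were lowest in those same libraries, WT 1 and KO 4. The median deviation of that list from the mean of the 6 libraries was -0.50 in WT 1 and -0.40 in KO 4 on the log2 scale, against 0.58, -0.02, 0.19 and 0.10 in WT 2, WT 3, KO 5 and KO 6, while that of the 38 members was 0.08 in WT 1 and 0.24 in KO 4 and -0.18, -0.25, 0.08 and -0.03 in the others. Thrsp, a lipogenic gene of the fed liver, measured 92.0, 575 and 603 FPKM in WT and 235, 366 and 416 in KO. Fasn, fatty acid synthase, measured 37.5, 143 and 48.2 FPKM in WT and 42.0, 65.1 and 57.7 in KO. Both genes were lowest in WT 1 among WT and in KO 4 among KO libraries. The list of 16 clock genes had medians between -0.07 and 0.06 in all 6 libraries. It holds genes that peak at opposite times of day, so its median cannot show whether the libraries differ in time of day. Nr1d1, a gene of that list, measured 17.5, 10.5 and 19.1 FPKM in WT and 23.8, 11.9 and 36.3 in KO. The list of 11 genes of fasting and glucose production showed the library order in part. Its median was highest in WT 1, at 0.29 against -0.41 and -0.17 in WT 2 and WT 3, while KO 4, at 0.16, hardly stood apart from KO 5 and KO 6, at 0.13 and 0.14. The part of this library order in the genotype values was not tested beyond leaving libraries out. Without WT 1 and KO 4, a choice made after seeing the data, 32 of 38 members were above 0 with a median of 0.23. Without WT 3 alone 28 were above 0 with a median of 0.08, without KO 4 alone 28 with 0.11, and without WT 1 alone 38 with 0.29.

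**Figure D2:**
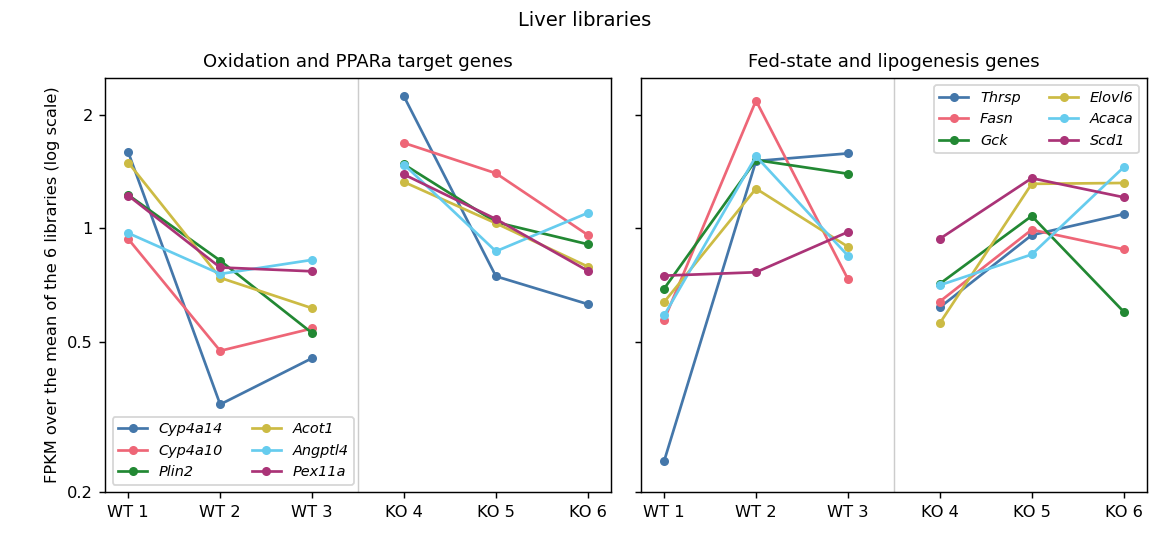
FPKM over the mean of the 6 liver libraries (log scale) for 6 members (left) and 6 fed-state genes (right), 1 line per gene and genotype and 1 point per library; the genes were chosen after their values were seen. On the left WT 1 is the highest WT point and KO 4 the highest KO point, and on the right WT 1 and KO 4 are the lowest points of their genotype for Thrsp, Fasn, Elovl6, Acaca and Scd1.

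Other genes of the same pathways, taken from lists, were called in no list. Of 16 other peroxisomal genes, all tested in liver, 0 were called, 11 were above 0 and 5 below, and the median was 0.09. The KO libraries lay above the WT libraries for 2 of them, against 4.94% of all genes, and below for 1, against 4.58%. Crot, which makes the carnitine esters that leave peroxisomes, measured 149, 101 and 98.6 FPKM in WT and 186, 170 and 163 in KO (log2 fold change 0.60 ± 0.16, limma adjusted p = 0.808), all KO libraries above all WT libraries. Abcd2, a peroxisomal fatty acyl-CoA transporter, measured 1.10 ± 0.25 and 2.67 ± 1.31 FPKM (1.12 ± 0.35), also with every KO library higher. Acox2, the peroxisomal oxidase of branched chains and bile acid intermediates, lay the other way, with every KO library below every WT library, at 91.9 ± 11.7 and 76.8 ± 4.99 FPKM (-0.25 ± 0.11). Of 5 tested genes of ketone body synthesis and use 5 were above 0, against 50.2% of all genes, with a median of 0.24. The KO libraries lay above the WT libraries for 2 of them, against 4.94% of all genes, and below for 0, against 4.58%. Acat1, a mitochondrial thiolase of ketone body metabolism, was 1 of the 2, at 155 ± 4.31 and 183 ± 10.5 FPKM (0.24 ± 0.08, limma adjusted p = 0.967). Of 12 tested genes of other hydroxylases, thioesterases and binding proteins 11 were above 0, against 50.2% of all genes. The groups did not overlap for 1 gene higher in KO, against 4.94% of all genes, and 1 lower, against 4.58%. Cyp4a12b was higher in KO, at 25.0 ± 5.12 and 39.8 ± 8.76 FPKM, and the acyl-CoA thioesterase Acot7 lower, at 14.1 ± 0.519 and 11.7 ± 1.75 (-0.27 ± 0.12, limma adjusted p = 1.00). Cyp4a12b has a near copy, and its coding sequence is 98.5% identical to that of Cyp4a12a.

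The list for fatty acid activation had 9 of 12 genes above 0 and a median of 0.09, and that for other mitochondrial oxidation 9 of 12 and 0.07. Lipid droplets and lipolysis (5 of 11, -0.07) and nuclear receptors (6 of 15, -0.05) had medians below 0. Acsl3, an acyl-CoA synthetase of lipid droplets, went the other way, at 8.36 ± 1.01 FPKM in WT and 6.04 ± 1.16 in KO. Of 11 genes of fasting and glucose production 5 had an unadjusted p under 0.05, against 4.38% of all genes, and 0 were called. Their log2 fold changes were above 0 for 7 and below for 4, from -1.81 to 1.62. The groups did not overlap for 2 genes higher in KO, against 4.94% of all genes, and 1 lower, against 4.58%. G6pc, which releases glucose from its phosphate, measured 258, 158 and 129 FPKM in WT and 330, 342 and 281 in KO, and Igfbp1, a secreted protein that insulin lowers, 63.6, 32.3 and 16.2 and 151, 79.9 and 80.6. The KO libraries were above the WT libraries for both, and WT 1 was the highest WT library for both. Their limma adjusted p values were 0.817 and 0.901. The lower gene, named after its values were seen, was Asns, asparagine synthetase, at 1.35, 1.22 and 0.638 FPKM in WT and 0.175, 0.141 and 0.395 in KO (-1.81 ± 0.37, limma adjusted p = 0.548).

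Across tissues the members marked liver. In WT mice 33 of 38 had their highest mean level on the FPKM scale in liver, 3 in testis and 2 in brain. In liver 13 members exceeded 100 FPKM and 3 lay under 1, whereas in brain 0 exceeded 100 and 14 lay under 1, and in testis 1 exceeded 100 and 13 lay under 1. In 1 limma fit over the 9 WT libraries, 34 members were lower in brain than in liver at an adjusted p under 0.05, against 27.8% of all genes tested, and 2 were higher, against 40.3%. In testis against liver 34 were lower, against 28.8% of all genes, and 1 was higher, against 56.7%. The median log2 difference of the members was -4.09 for brain and -4.32 for testis, against 0.15 and 0.88 over all genes. The scaling differs by tissue: on the TPM scale all genes shift to 1.40 and 1.81 and the members to -2.79 and -3.39.

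**Figure D3:**
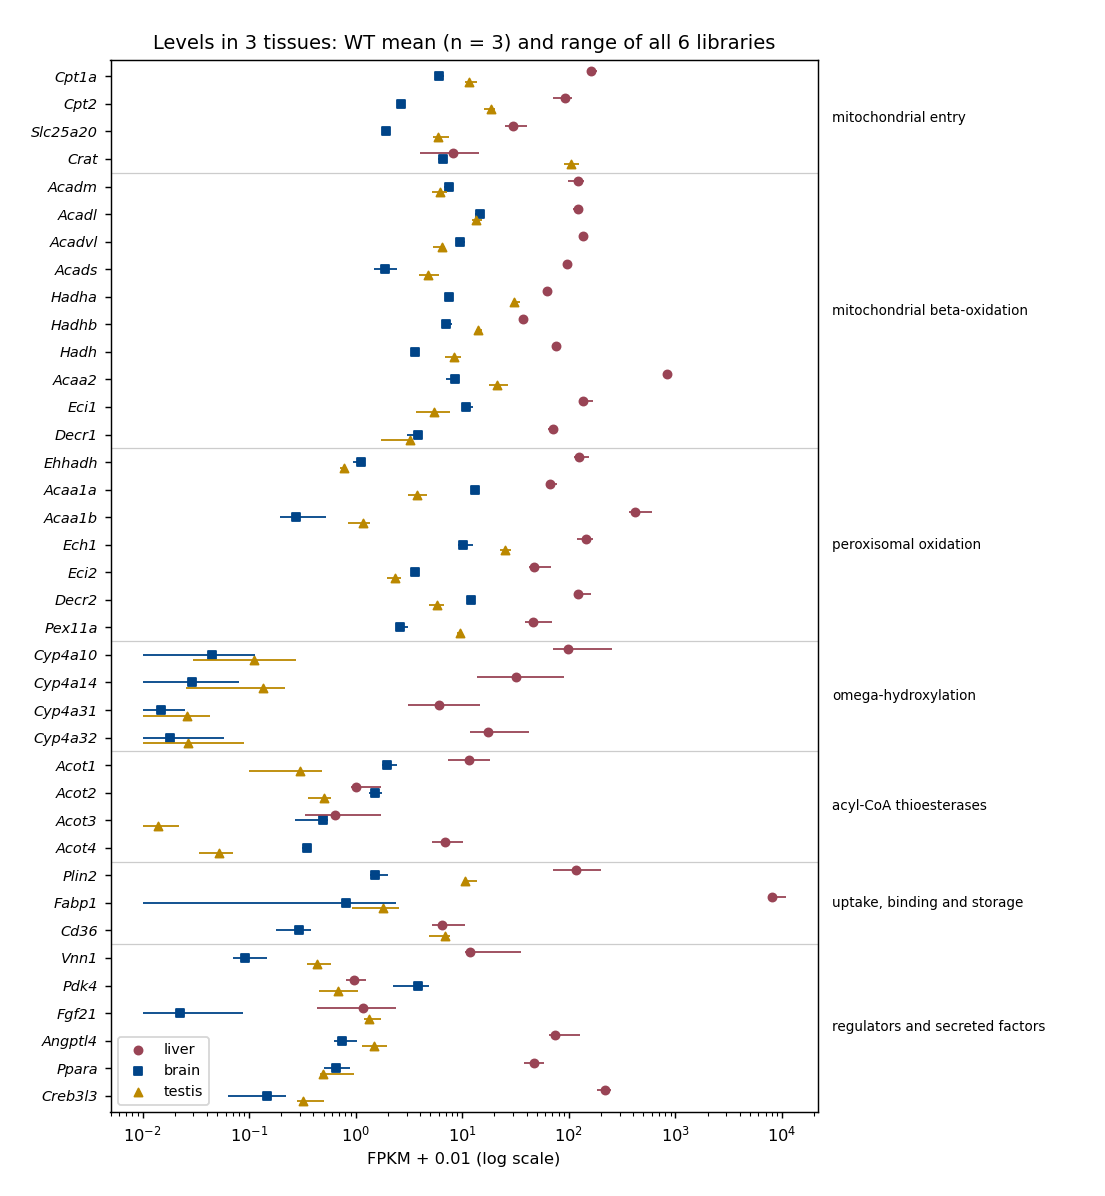
Level of each of the 38 genes in liver (circles), brain (squares) and testis (triangles): the horizontal axis is FPKM + 0.01 on a log scale, symbols are the means of 3 WT libraries and lines the range over all 6 libraries of the tissue. Liver symbols lie to the right for 33 genes, Crat, Cd36 and Fgf21 have their highest mean in testis, and Pdk4 and Acot2 in brain.

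Fabp1 headed the members in liver at 8102 ± 118 FPKM, rank 14 of all genes, followed by Acaa2 at rank 92 and Acaa1b at rank 174. Acaa1b showed how a pair of near copies can part: it was at 415 ± 56.9 FPKM in liver, 0.267 ± 0.073 in brain and 1.16 ± 0.21 in testis, whereas Acaa1a was at 65.7 ± 3.21 in liver, at most 14.2 in any brain library, and 3.71 ± 0.80 in testis. Creb3l3 ran at 216 ± 32.1 FPKM in liver and at 0.137 ± 0.051 and 0.308 ± 0.032 in brain and testis. Ppara was at 47.5 ± 8.09 FPKM in WT liver, 0.641 ± 0.208 in brain and 0.485 ± 0.032 in testis, and the brain and testis ranges overlapped. The Cyp4a genes were close to silent outside liver: over the 3 WT libraries, brain held 6 reads of Cyp4a10, 4 of Cyp4a14 and 1 each of Cyp4a31 and Cyp4a32, all of them in WT 3.

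Crat, Pdk4, Acot2, Cd36 and Fgf21 were the exceptions. Crat measured 110, 112 and 90.3 FPKM in WT testis, against 14.3, 6.02 and 4.20 in liver and 6.99, 6.16 and 6.59 in brain. Every testis library was above every other library, the mean of 104 ± 11.9 was 12.7 times that of liver, and the log2 difference was 3.84 ± 0.36 (limma adjusted p = 6.32e-06). Liver and brain overlapped for Crat, and their order turned on the TPM scale. Pdk4 was highest in brain at 3.82 ± 0.89 FPKM, against 0.954 ± 0.169 in liver and 0.674 ± 0.125 in testis, and the order of liver and testis turned on the TPM scale. Acot2 stood at 1.50 ± 0.21 FPKM in brain, 0.990 ± 0.103 in liver and 0.497 ± 0.070 in testis, and its difference between testis and liver was lost on the TPM scale (limma adjusted p = 0.798). Cd36 (6.49 ± 1.24 in liver and 6.87 ± 0.92 in testis) and Fgf21 (1.16 ± 1.06 and 1.32 ± 0.17) had overlapping liver and testis libraries, as Acot3 had in liver and brain, where its order turned on the TPM scale. On that scale the testis levels of Cd36 and Fgf21 were called higher than those of liver (limma adjusted p = 0.00201 and 0.0448). The brain levels of Crat and Acot3 were also called higher than those of liver there (limma adjusted p = 0.00488 and 0.00882). Hadha in testis and Acot1 in brain were no longer called lower than in liver (limma adjusted p = 0.210 and 0.0638).

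The members differed between testis and brain no more often than genes at large. In testis against brain 18 members were higher at a limma adjusted p under 0.05, against 48.9% of all genes, and 11 were lower, against 34.9%. Higher in testis were Cpt2 (18.6 ± 2.39 and 2.67 ± 0.21 FPKM), Plin2 (10.6 ± 0.15 and 1.49 ± 0.12), Hadha (30.6 ± 1.22 and 7.42 ± 0.13) and Pex11a (9.55 ± 0.11 and 2.56 ± 0.22). Lower in testis were Acaa1a and Acot1 (0.291 ± 0.161 and 1.97 ± 0.10 FPKM). The median log2 difference of the members was 0.84, against 0.39 over all genes.

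In brain 32 of the 38 genes passed the filter on low values, the 4 Cyp4a genes, Vnn1 and Fgf21 being left out. Of these 0 were called, while 15 of all 17922 genes were (0.0837%), and 2 had an unadjusted p under 0.05, against 4.46% of all genes. The log2 fold change was above 0 for 20 of the 32, against 53.3% of all genes, with a median of 0.03 against 0.01. The KO libraries lay above the WT libraries for 4 members, against 4.99% of all genes, and below for 2, against 4.09%.

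Acaa1b had the largest of these differences, at 0.184, 0.319 and 0.299 FPKM in WT and 0.408, 0.487 and 0.511 in KO brain. Only 43 reads in WT and 73 in KO stand behind it. The near copy Acaa1a, 96.6% identical in coding sequence, had 4723 and 4600 reads there, so reads of this pair may be divided wrongly. For Acaa1b the values were not checked for this. Its log2 fold change was 0.65 ± 0.20 (limma unadjusted p = 0.0124, adjusted p = 0.920). Pdk4 was lower in KO, at 3.47, 4.83 and 3.16 FPKM in WT and 2.73, 3.11 and 2.21 in KO (-0.48 ± 0.18). The gap between the nearest libraries of Pdk4 was small. Plin2 measured 1.35, 1.57 and 1.54 FPKM in WT and 1.98, 1.70 and 1.66 in KO, and Eci1 11.2, 10.8 and 10.3 and 11.3, 12.7 and 11.3. Cpt1a measured 6.34, 6.09 and 5.75 and 6.66, 6.49 and 6.63, and Hadh 3.68, 3.50 and 3.65 and 3.47, 3.47 and 3.36. These last 4 differed by less than 0.25 on the log2 scale, and the groups of Hadh overlapped on the TPM scale.

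Brain Fabp1 was highest in the libraries with most of the hepatocyte transcript Alb. WT 1 and WT 2 had 0 reads of Fabp1, while WT 3 had 36, KO 4 had 3, KO 5 had 12 and KO 6 had 18. Alb measured 9.55, 4.24 and 5.47 FPKM in WT 3, KO 5 and KO 6 and 0.410 or less in the other 3. The level of Fabp1 over that of Alb was 0.250, 0.188 and 0.221 in WT 3, KO 5 and KO 6, within or just under the 0.202 to 0.332 of the liver libraries. In KO 4 it was 0.529, above that range, on 3 reads of Fabp1 and 24 of Alb. The reads of Cyp4a10 and Cyp4a14 in brain were also in those 3 libraries alone. Leaving out WT 3, KO 5 and KO 6, chosen after seeing the data, leaves 2 WT libraries and 1 KO library, which is assumed to vary as the WT libraries do. That fit gave a median of 0.02 with 0 members called, and an arm of 1 library says nothing of stability. Acaa1b stood at 0.184 and 0.319 FPKM in the 2 WT libraries and at 0.408 in KO 4.

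**Figure D4:**
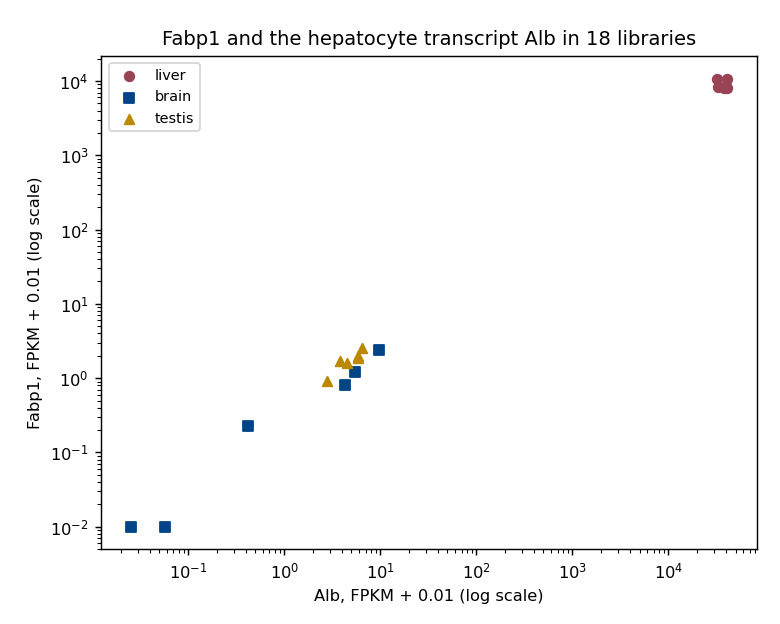
Fabp1 against the hepatocyte transcript Alb in the 18 libraries, both as FPKM + 0.01 on log scales, 1 point per library. Brain WT 3, KO 5 and KO 6 sit near the testis points, brain WT 1 and WT 2 sit at 0 reads of Fabp1 at the lower left, and the liver libraries lie at the upper right.

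In testis 32 members were tested as well, the 4 Cyp4a genes, Acot3 and Acot4 being left out, and 0 were called, while 1 of all 22341 genes was (0.00448%). The median log2 fold change was -0.03, against 0.03 over all genes. It was above 0 for 15 of 32, against 56.5% of all genes, and 2 members had an unadjusted p under 0.05, against 4.13%. The KO libraries lay above the WT libraries for 4 tested members, against 7.57% of all genes, and below for 1, against 4.32%. Creb3l3 measured 0.331, 0.322 and 0.271 FPKM in WT and 0.483, 0.435 and 0.497 in KO (0.49 ± 0.16, limma adjusted p = 0.871). Decr1 measured 3.31, 2.90 and 3.42 FPKM in WT and 2.09, 1.71 and 2.89 in KO (-0.53 ± 0.20), with KO 6 next to WT 2, and its groups overlapped on the TPM scale. Both stood at low levels.

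Among the more abundant members of testis, Crat measured 110, 112 and 90.3 FPKM in WT and 125, 118 and 117 in KO (0.22 ± 0.11). Hadha measured 31.1, 31.4 and 29.2 FPKM in WT and 34.6, 32.4 and 34.8 in KO (0.15 ± 0.08). Ppara was low in testis, with 138 reads in WT and 196 in KO. It measured 0.510, 0.496 and 0.448 FPKM in WT and 0.599, 0.549 and 0.962 in KO, where KO 6 stood apart. All 4 genes of mitochondrial entry had a log2 fold change above 0 and 8 of the 10 genes of the cycle below 0. Spermatid markers summed to 17367 to 24463 FPKM in WT and 20144 to 29576 in KO, and adipocyte markers, all 6 of which had reads, to 23.0 to 42.3 in WT and 14.3 to 21.1 in KO; their part in these values was not tested. Cd36, which fat expresses, measured 6.87 ± 0.92 and 5.92 ± 0.93.

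**Figure D5:**
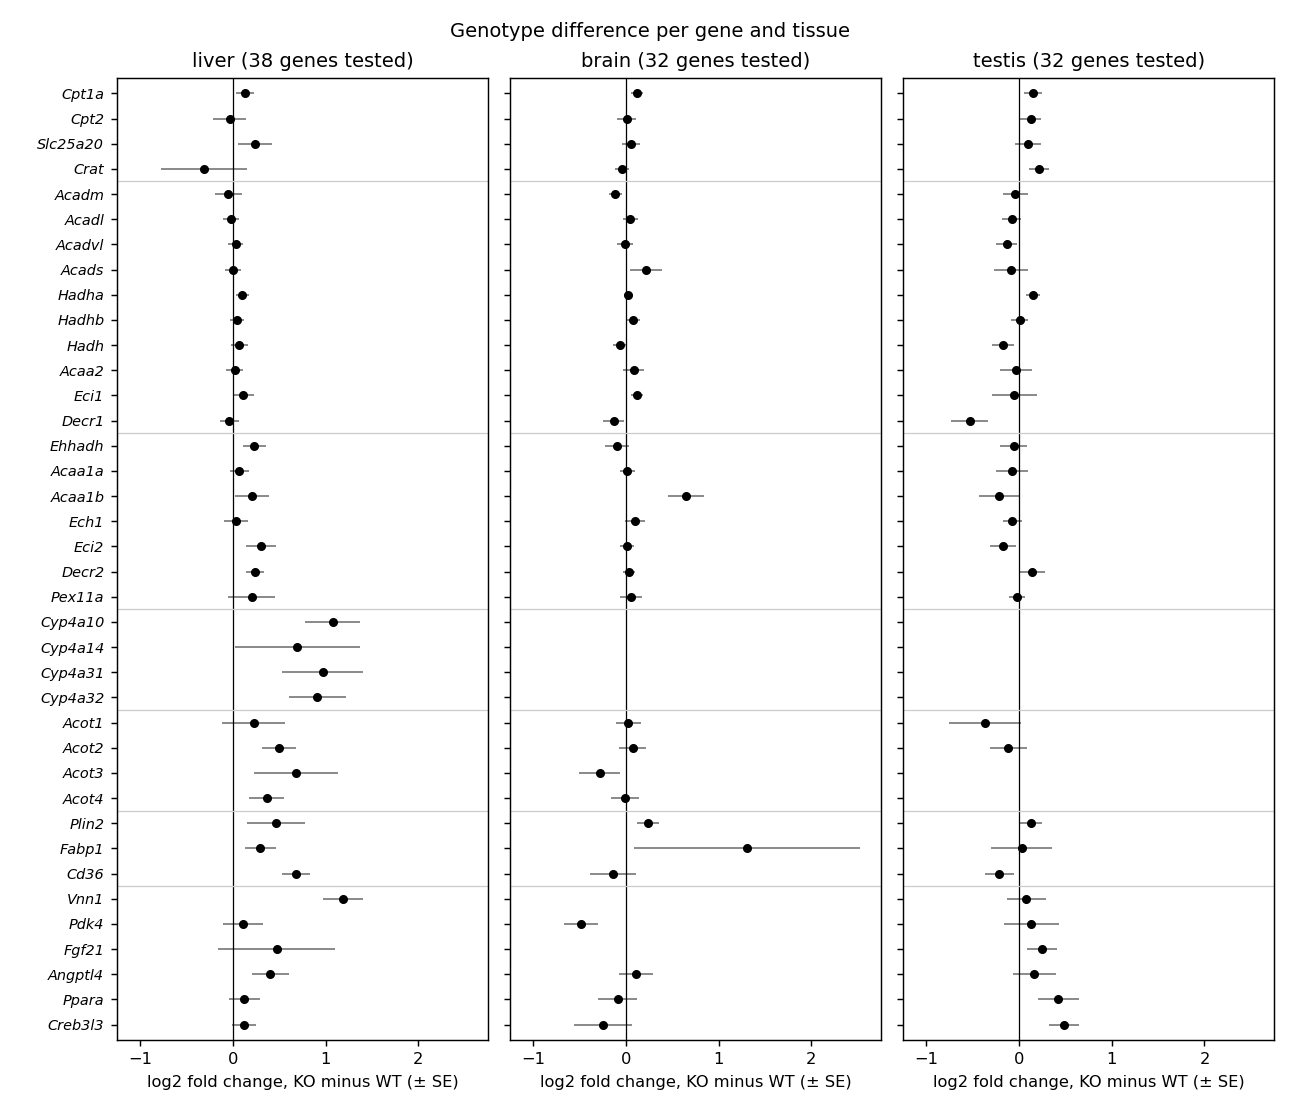
Log2 fold change of KO minus WT (point) with its limma standard error (bar) for each tested gene, in liver (38 genes), brain (32) and testis (32). In liver 33 of 38 points lie right of 0, in brain 20 of 32 and in testis 15 of 32, and 0 genes were called in any tissue.

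Whether the genotype difference itself changed with tissue was tested as an interaction. The 4 Cyp4a genes entered neither test, Vnn1 and Fgf21 were left out for brain, and Acot3 and Acot4 for testis. For brain minus liver 0 of 32 members and 0 of 12922 genes were called (0%). A limma unadjusted p under 0.05 was found for 1 member and 625 genes (4.84%), and 22 members and 6155 genes were below 0. For testis minus liver 0 of 32 members were called, and 6 of 13133 genes were (0.0457%). A limma unadjusted p under 0.05 was found for 5 members and 4.61% of all genes, and 24 members and 6468 genes were below 0. The nearest members were Cd36, with an interaction of -0.89 ± 0.22 in testis minus liver (limma unadjusted p = 0.0018, adjusted p = 0.564) and -0.82 ± 0.30 in brain minus liver (adjusted p = 0.940), and Vnn1, with -1.11 ± 0.30 in testis minus liver (adjusted p = 0.606). The liver lean was therefore not shown to differ from brain or testis for any of the members tested, and the Cyp4a genes could not be tested.

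Over the 18 libraries and 17437 genes, the profile of Ppara on the log scale was most like that of Slco1a1 (Pearson r = 0.997), Vnn1 most like Slc22a7 (0.992) and Cyp4a14 most like Mup-ps20 (0.993). These are descriptions with no p, since the libraries share tissues and all these genes are high in liver.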

How the data were processed

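Poly-A RNA of 18 libraries (liver, brain and testis, WT and Pcgf6 KO, 3 each) was sequenced. The submitters' processing notes name HISAT2 2.0.5, featureCounts 1.5.0-p3, DESeq2 1.16.1 and the build mm10. The authors deposited FPKM per gene; how its library sizes were set is not given in the sources used here. Multiplied by gene length, 100% of the values came out as whole reads (tolerance 0.01 reads) once divided by a constant of their library, which gave the reads and depth per library. Depth over the library size implied by the FPKM ranged from 1.44 to 1.52 (liver), 0.806 to 0.835 (brain) and 0.823 to 0.969 (testis), so levels across tissues carry this scaling, and TPM was tried beside it.

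The test, run in R 4.3.3, was limma 3.58.1 with a mean-variance trend on log2(FPKM + 0.1), which understates changes of low genes, for genes that reached 10 reads in 3 or more of 6 libraries (of 9 for tissues). It was 2-sided, with Benjamini-Hochberg adjustment over all genes tested and a threshold of 0.05. The steps were tested on simulated data. Members and lists were chosen with earlier results of these data known. All members are named by role; library values are given for members whose groups do not overlap and for Ppara, Cpt1a, Pdk4, Fgf21, Angptl4, Cd36 and Fabp1, and up to 3 genes per pathway list by smallest p in liver. Other genes given with values, among them Cyp4a14, Cyp4a31, Cyp4a32, Plin2, Acot1, Thrsp and Fasn, were chosen after their values were seen. Figures used Python 3.11.15 with matplotlib 3.10.9. Alternatives were other pseudocounts, filters, scales, fits and left-out libraries.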

Additional observations from a re-analysis of the deposited data

How the results depend on the processing

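Of 344 recomputed values over 23 results, 338 were scored as the same. For single genes this meant the same direction and side of the threshold, and for medians a move smaller than the spread between replicates. Counts of members called had to stay within a set ratio of the main count, or at 0 where that was 0. Single members could thus cross the threshold, as in testis against brain, with 28 to 32 called over the alternatives. In 1 fit over all 18 libraries 1 member was called in liver, Vnn1 (log2 fold change 1.19, limma adjusted p = 0.0126), and 87 genes in place of 3. Over the other alternatives with all replicates or with chosen libraries left out the limma adjusted p of Vnn1 reached 0.862. With 1 liver library left out at a time it ran from 0.394 to 0.999. Leaving out libraries gave liver medians of the members from 0.08 to 0.29 with 0 members called, and a testis median from -0.048 (without KO 5) to 0.071 (without WT 3). In liver it gave Ppara -0.026 to 0.34 (the highest without both WT 1 and KO 4, chosen after seeing the data) and Fgf21 -0.00087 to 1.12, both lowest without WT 3, and Pdk4 -0.0079 to 0.25, lowest without KO 6; none of these was called and the cause was not tested.

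The labels give WT libraries the numbers 1 to 3 and KO libraries 4 to 6, so no number pairs the genotypes of a tissue. The same-rank libraries of liver (WT 1 with KO 4, WT 2 with KO 5, WT 3 with KO 6) deviated together with r = 0.222, 0.097 and 0.193 over 17438 genes, a hint from the data and not from the design, and in brain and testis at least 1 such pair was negative. With this file number as a replicate block 0 members were called in each tissue, and 2, 9 and 1 genes in liver, brain and testis against 3, 15 and 1. Libraries with the same number in 2 tissues had r from -0.036 (brain WT 3 with testis WT 3) to 0.170 (brain KO 6 with testis KO 6). All such pairs but the first named were above 0. The main tissue and interaction fits treat these libraries as independent, and whether they share animals was not tested. With the library number as a block, 36, 35 and 30 members were called for brain against liver, testis against liver and testis against brain, and 0 for both interactions. The count of all genes called was 0 to 36 in testis 9 to 27 in brain, 0 to 4 for brain minus liver and 3 to 17 for testis minus liver over the alternatives. Depth limits the low genes: Fgf21 had 46 and 54 reads in WT and KO liver, and the Cyp4a genes at most 9 reads per genotype in brain and 24 in testis.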
